A study of Mus musculus with 10 samples.

Results

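The 10 genes described here make or regulate the machinery that folds glycoproteins in the endoplasmic reticulum (ER) of the mouse testis. They are the lectin chaperone genes Clgn, Calr3, Calr and Canx, the disulfide isomerase genes Pdilt and Pdia3, and 4 genes of the unfolded protein response, Xbp1, Atf6, Atf4 and Ddit3. Their probes were found by accession, which gave 16 probes of 33851 tested probes and 10 of 16738 tested genes. The brightest probe stood for each gene, and every other probe is reported beside it.

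The samples were single testes of male C57BL/6N mice at 6 weeks of age, with 1 array for each of 10 animals. The 5 R animals were born to dams held to 50% of the control intake from 6.5 days post coitum and were nursed by foster dams from the control group. The 5 C animals were born to dams with free access to chow and stayed with their own mothers, so maternal diet and fostering differ together and cannot be told apart. Males of both groups ate regular chow after weaning. The comparison asks which testis transcripts differ at 6 weeks after the intrauterine restriction, and the labels name no litters, so the p-values count each of the 10 animals as independent of the others.

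A newly made glycoprotein in the ER carries a sugar tree, and while that tree ends in a single glucose it is held by the membrane lectin calnexin (Canx) or the soluble lectin calreticulin (Calr), which recruit the disulfide isomerase ERp57 (Pdia3). Male germ cells have their own versions of these proteins, calmegin (Clgn), calsperin (Calr3) and PDILT, and mice that lack any of them make sperm without the surface protein ADAM3 and are infertile. When unfolded proteins accumulate, the sensor IRE1 splices Xbp1 mRNA, the sensor ATF6 is cut to release a transcription factor, and the sensor PERK slows translation while ATF4 and its target CHOP (Ddit3) are made.

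Calr and Canx share a sequence element upstream of their start sites, and both are shown because the results set these widely expressed genes beside their germ cell versions. The element is the ER stress response element, the letters CCAAT, 9 further bases and the letters CCACG, read on either strand; its CCAAT part overlaps the plain CCAAT box by construction. It is known in mammals as a binding site of ATF6 together with the factor NF-Y. The sequences are RefSeq windows of build GRCm38.p6, 250 bases before to 50 bases after the start site, written along the gene's strand with the element in capitals. The Calr window is chr8:84846882-84847181 (minus strand), with the element on the opposite strand at positions -162 to -144 from the start site. The Canx window is chr11:50325624-50325923 (minus strand), with the element on the gene's own strand at -145 to -127. The window of the germ cell gene Calr3, chr8:72443729-72444028 (minus strand), holds no such match and has no capitals.
Calr: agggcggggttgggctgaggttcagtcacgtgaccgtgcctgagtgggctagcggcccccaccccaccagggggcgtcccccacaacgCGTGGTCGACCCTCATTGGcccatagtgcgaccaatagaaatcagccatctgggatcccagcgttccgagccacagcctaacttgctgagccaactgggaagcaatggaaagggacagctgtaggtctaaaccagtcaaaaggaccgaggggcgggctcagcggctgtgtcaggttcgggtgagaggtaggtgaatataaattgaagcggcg
Canx: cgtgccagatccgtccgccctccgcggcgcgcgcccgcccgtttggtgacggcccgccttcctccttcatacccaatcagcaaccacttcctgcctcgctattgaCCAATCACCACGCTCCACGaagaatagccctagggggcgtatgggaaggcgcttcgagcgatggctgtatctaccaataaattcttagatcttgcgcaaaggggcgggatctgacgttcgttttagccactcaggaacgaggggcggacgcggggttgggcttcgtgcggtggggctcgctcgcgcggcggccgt
Calr3: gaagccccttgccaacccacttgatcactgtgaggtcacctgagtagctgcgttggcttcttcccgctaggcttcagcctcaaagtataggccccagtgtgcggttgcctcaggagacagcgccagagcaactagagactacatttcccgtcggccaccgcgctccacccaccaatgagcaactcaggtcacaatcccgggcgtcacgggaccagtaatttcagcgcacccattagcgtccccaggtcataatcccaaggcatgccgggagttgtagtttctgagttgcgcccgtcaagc
RefSeq windows were found for 8 of the 10 genes, 9 windows in all, and the element occurred in those of Calr and Canx alone. Over all 32851 windows of this length 39 (0.119%) held it. The windows of Pdia3, Pdilt, Ddit3, Xbp1, Atf4 and Calr3 had no match to these letters, nor did any of the 9 windows hold the related element ERSE-II (ATTGG, 1 base, CCACG; 0.0365% of all windows), the XBP1 element TGACGTGG (0.676%), the cyclic AMP element TGACGTCA (1.79%) or the amino acid response element TGATGCAA (0.895%). A match is a string of letters in this window and was not tested as a site.

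Values are log2 signals, the log2 of the processed spot intensity minus the 75th percentile of the same array. They can be compared between arrays for 1 probe, and not between probes. Groups were compared with limma over all tested probes, and a gene is called higher or lower in R at a Benjamini-Hochberg adjusted p under 0.05. The 75th percentile lay between 804 and 1019 intensity units, 56.6% to 67.4% of probes were well above background, and 0 spots were saturated. All 10 markers each of round and of elongating spermatids were tested. C replicate 2 stood apart on principal component 1 (60.4% of the variance) at 123, against 13.9 to 29.5 for the other C arrays and -49.2 to -33.6 for R. Slide 1 held 4 R and 2 C arrays and slide 2 held 1 R and 3 C arrays. In the table of results that the authors deposited, R replicate 1 stands on the control side and C replicate 5 on the test side, so the groups here follow the labels and results are also given without these arrays.

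Of the 10 genes, Calr, Canx, Calr3, Xbp1 and Atf6 were lower in the R testes, by 1.13-fold to 1.43-fold, and Clgn, Pdilt, Pdia3, Atf4 and Ddit3 were not called. The count was 5 lower and 0 higher of 10, against 20.6% lower and 14.9% higher among the 16738 tested genes. The median log2 change was -0.13 over the 10 genes and -0.03 over all tested genes. Every R value lay below every C value for 3 of the 10 genes (Calr, Canx and Atf6), against 16.5% of all tested genes. The 5 falls were small: 1 to 5 genes were called as each array was left out, 0 without R replicate 1 and C replicate 5, and 0 when the arrays were grouped as in that table. With that grouping limma called 0 of all tested probes, so the last count is not particular to these genes. Without R replicate 1 and C replicate 5 limma called 6116 of the 33851 tested probes, against 13059 with all 10 arrays. The 5 genes kept their direction in every setting run, while the sizes of the falls varied. With array weights all 5 were called, at -0.16 for Calr, -0.17 for Canx, -0.36 for Calr3, -0.32 for Xbp1 and -0.25 for Atf6. Over the leave-one-out fits the log2 change lay between -0.20 and -0.15 for Calr, -0.30 and -0.20 for Canx, -0.36 and -0.24 for Calr3, -0.60 and -0.38 for Xbp1 and -0.34 and -0.27 for Atf6, and without R replicate 1 and C replicate 5 the 5 changes were -0.18 to -0.52. Within slide 2, with its single R array, limma called 0 of all tested probes (8750 at p under 0.05 before adjustment), so changes within that slide are given below as values with no test. With each array's median as the scale the median over all genes moved to -0.23, 37.3% of all genes were called lower and 5.43% higher, and 7 of the 10 genes were lower and 0 higher, with Clgn and Ddit3 added.

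**Figure D1:**
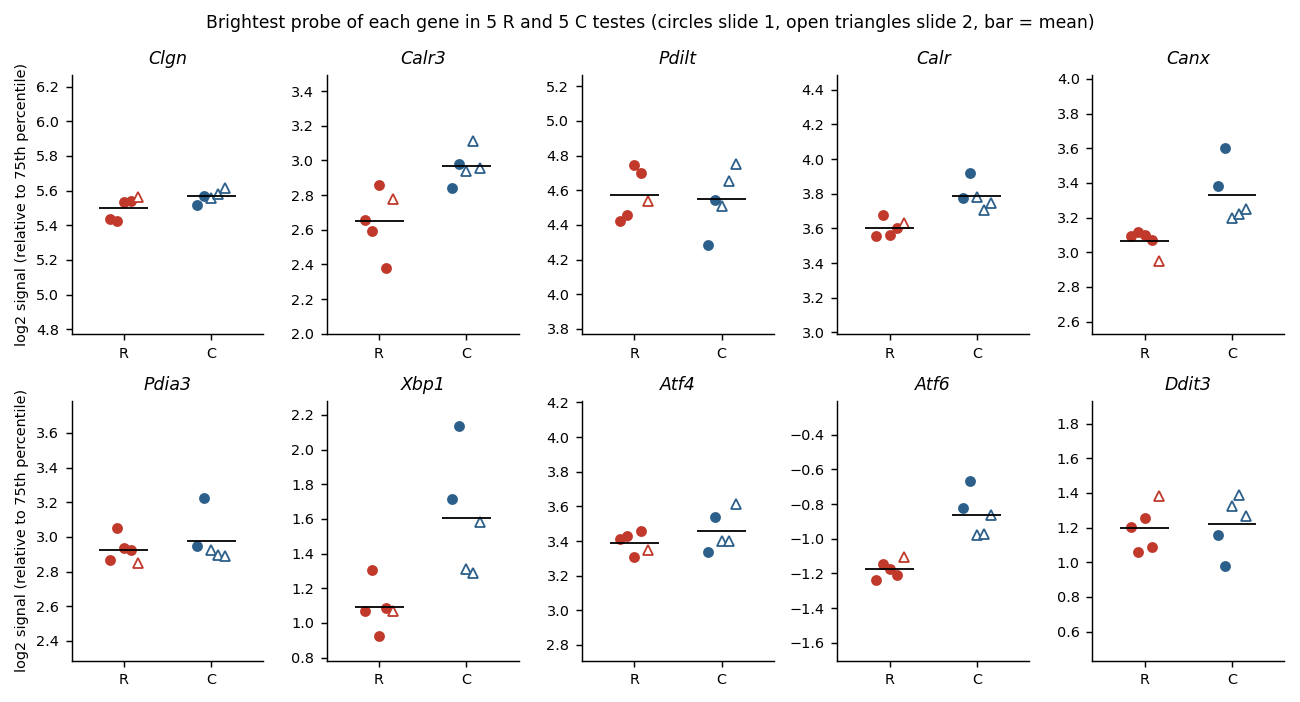
Log2 signal (y axis, relative to each array's 75th percentile) of the brightest probe of each of the 10 genes in the 5 R and 5 C testes, with filled circles for slide 1, open triangles for slide 2 and a bar at the group mean; every panel spans the same height. The R points of Calr, Canx and Atf6 lie below all C points (for Atf6 at most -1.11 in R and at least -0.98 in C), while those of Clgn, Pdilt, Pdia3, Atf4 and Ddit3 overlap.

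Both widely expressed lectin chaperones were lower in R. Calr, the soluble lectin, had log2 signals of 3.55, 3.68, 3.56, 3.60 and 3.63 in the R testes, against 3.78, 3.92, 3.78, 3.71 and 3.74 in the C testes. The groups did not overlap, though the highest R testis and the lowest C testis nearly met. Calr was 1.13-fold lower in R (95% interval 1.03 to 1.25, limma adjusted p = 0.0403), with a log2 change of -0.18 ± 0.06 (SE). The change was -0.25 within slide 1 (adjusted p = 0.0688) and -0.12 within slide 2. It was no longer called after removal of R replicate 1, 3, 4 or 5 or of C replicate 1, 3 or 5 (7 arrays, adjusted p at most 0.0923), nor with normexp background correction (0.0642). In a whole testis, fewer cells of a type and less RNA per cell cannot be told apart.

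Canx, the membrane lectin, had log2 signals of 3.09, 3.12, 3.10, 3.07 and 2.95 in the R testes, against 3.38, 3.60, 3.20, 3.22 and 3.25 in the C testes. All R testes lay below all C testes, and the 2 C testes of slide 1 were the highest. Canx was 1.20-fold lower in R (95% interval 1.05 to 1.37, adjusted p = 0.0348), with a log2 change of -0.26 ± 0.09 (SE). Its other probe changed by -0.22 and did not pass (adjusted p = 0.0696). Within slide 1 the change was -0.40 (adjusted p = 0.0253) and within slide 2 it was -0.27. Leaving out any of 6 arrays (R replicates 1 to 5 or C replicate 1) ended the call, at adjusted p up to 0.0778. The authors' deposited table also lists this Canx probe, with a log2 ratio of test over control of -0.17, a p of 0.0450 and a q of 0.515.

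Pdia3, the partner isomerase of these lectins, had log2 signals of 2.86, 3.05, 2.94, 2.92 and 2.85 in the R testes, against 2.95, 3.22, 2.92, 2.90 and 2.89 in the C testes. The groups overlapped throughout, and C replicate 2 stood above the rest. The log2 change was -0.05 ± 0.08 (SE, adjusted p = 0.615), which as a fold of R over C is 0.964 with an interval of 0.853 to 1.09, and it turned to 0.01 without C replicate 2. The second Pdia3 probe changed by 0.02 (adjusted p = 0.813).

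Among the germ cell versions, Calr3 alone was called. Calr3, needed in mice for the maturation of ADAM3, had log2 signals of 2.66, 2.59, 2.86, 2.38 and 2.78 in the R testes, against 2.84, 2.98, 2.94, 3.11 and 2.95 in the C testes. In R, 4 testes lay below every C testis, with R replicate 4 the lowest, and R replicate 3 lay just above the lowest C testis. Calr3 was 1.24-fold lower in R (95% interval 1.07 to 1.44, adjusted p = 0.0288), with a log2 change of -0.31 ± 0.10 (SE). The change was -0.29 within slide 1 (adjusted p = 0.150), -0.22 within slide 2 and -0.26 with the slide as a block (0.0509). The call was lost without R replicate 1, 2 or 4 or without C replicate 4 or 5, at adjusted p up to 0.0583.

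Clgn, the germ cell version of calnexin, had log2 signals of 5.44, 5.42, 5.53, 5.54 and 5.56 in the R testes, against 5.51, 5.57, 5.56, 5.58 and 5.62 in the C testes. All 10 values lay close together and the groups overlapped. The log2 change was -0.07 ± 0.06 (SE, adjusted p = 0.341), a fold of R over C of 0.953 with an interval of 0.873 to 1.04. With the array median as the scale the change was -0.28 and was called (adjusted p = 0.0284), so this gene's call depends on the scale.

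Pdilt, the testis isomerase that works with Clgn, had log2 signals of 4.42, 4.46, 4.75, 4.70 and 4.54 in the R testes, against 4.28, 4.55, 4.51, 4.65 and 4.75 in the C testes. Neither group stood above the other. The log2 change was 0.02 ± 0.10 (SE, adjusted p = 0.858), a fold of R over C of 1.02 with an interval of 0.869 to 1.19, and -0.18 with the array median as the scale. Its dimmer probe was at -1.76, -1.65, -1.49, -1.48 and -1.65 in the R testes, against -2.08, -1.98, -1.80, -1.69 and -1.46 in the C testes. That probe was mostly higher in R, but C replicate 5 was the highest of all, and its change of 0.19 did not pass (adjusted p = 0.204). It is also in the authors' deposited table, with a log2 ratio of test over control of 0.35, a p of 0.00665 and a q of 0.515.

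Differences between genes within an array do not depend on how the array is scaled. For each array the signal of a gene was subtracted from that of its counterpart, for 6 pairs chosen with the values known. The 3 pairs of a widely expressed gene and its germ cell counterpart were compared between groups by an exact permutation test. It was 2-sided, with a smallest possible p of 0.00794, and its p-values are given without adjustment for the number of pairs. The change of Canx minus that of Clgn was -0.19 (p = 0.0873) by this exact test. That of Calr minus Calr3 was 0.13 (exact p = 0.262) and that of Pdia3 minus Pdilt -0.08 (exact p = 0.563). In these 3 pairs a difference in change between the widely expressed and the germ cell version was not shown. The other pairs set called genes of the unfolded protein response against uncalled ones and are given as a description with no test. The change of Xbp1 minus that of Atf4 was -0.45, that of Atf6 minus Atf4 -0.25 and that of Xbp1 minus Ddit3 -0.49.

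**Figure D2:**
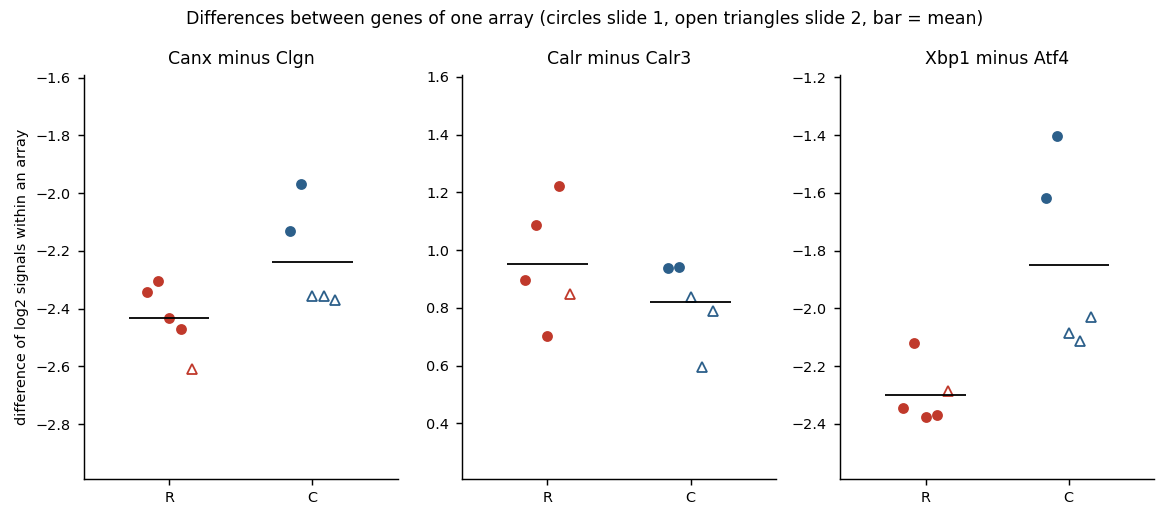
Difference of log2 signals between 2 genes of the same array (y axis) in the 5 R and 5 C testes, with filled circles for slide 1, open triangles for slide 2 and a bar at the group mean; only the shift between groups has a meaning, not the level. Xbp1 minus Atf4 is at most -2.12 in R and at least -2.11 in C, so the groups part narrowly, while Canx minus Clgn and Calr minus Calr3 overlap.

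Of the genes of the unfolded protein response, Xbp1 and Atf6 were lower in R. Xbp1, the factor made after splicing by IRE1, had log2 signals of 1.07, 1.31, 0.93, 1.09 and 1.07 in the R testes, against 1.72, 2.14, 1.31, 1.29 and 1.58 in the C testes. The highest R testis, R replicate 2, lay just above the lowest C testis, the other 4 lay below all C testes, and C replicate 2 was the highest. Xbp1 was 1.43-fold lower in R (95% interval 1.13 to 1.82, adjusted p = 0.0262), with a log2 change of -0.52 ± 0.15 (SE). Its other 2 probes were also called lower, at -0.56 (adjusted p = 0.00759) and -0.74 (0.00421), the last with no overlap between groups. By slide the change of the brightest probe was -0.83 in slide 1 (adjusted p = 0.0167) and -0.33 in slide 2. Without R replicate 1, 3, 4 or 5 or without C replicate 1 the call was lost, at adjusted p up to 0.0585. Which probes lie in the spliced stretch of the transcript was not analysed here, so the values show neither its splicing nor which forms each probe reads.

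Atf6, the sensor that becomes a transcription factor when cut, had log2 signals of -1.24, -1.14, -1.17, -1.21 and -1.11 in the R testes, against -0.82, -0.67, -0.98, -0.97 and -0.86 in the C testes. The R testes were tightly grouped and all lay below the C testes. Atf6 was 1.24-fold lower in R (95% interval 1.11 to 1.39, adjusted p = 0.00979), with a log2 change of -0.31 ± 0.07 (SE). Its call held in each of the 10 leave-one-out fits (highest adjusted p 0.0286) and with no filter on dim probes (0.0325), but not without both R replicate 1 and C replicate 5 (-0.30, 0.0550). The change was -0.45 within slide 1 (adjusted p = 0.0179) and -0.17 within slide 2.

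Atf4, whose protein is controlled mainly through translation, which arrays do not measure, had log2 signals of 3.41, 3.43, 3.31, 3.46 and 3.35 in the R testes, against 3.33, 3.54, 3.40, 3.40 and 3.61 in the C testes. The groups overlapped, with the 2 highest values in C. The log2 change was -0.07 ± 0.07 (SE, adjusted p = 0.464; fold of R over C 0.955, interval 0.857 to 1.06), and the other probe changed by -0.10 (0.315). Ddit3, which encodes the stress factor CHOP, had log2 signals of 1.20, 1.06, 1.25, 1.09 and 1.38 in the R testes, against 1.16, 0.98, 1.33, 1.39 and 1.27 in the C testes. The values of both groups were interleaved. Its log2 change was -0.02 ± 0.10 (SE, adjusted p = 0.850; fold of R over C 0.983, interval 0.849 to 1.14), with the opposite sign within each slide (0.09 and 0.06), and -0.23 (0.0497) with the array median as the scale.

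**Figure D3:**
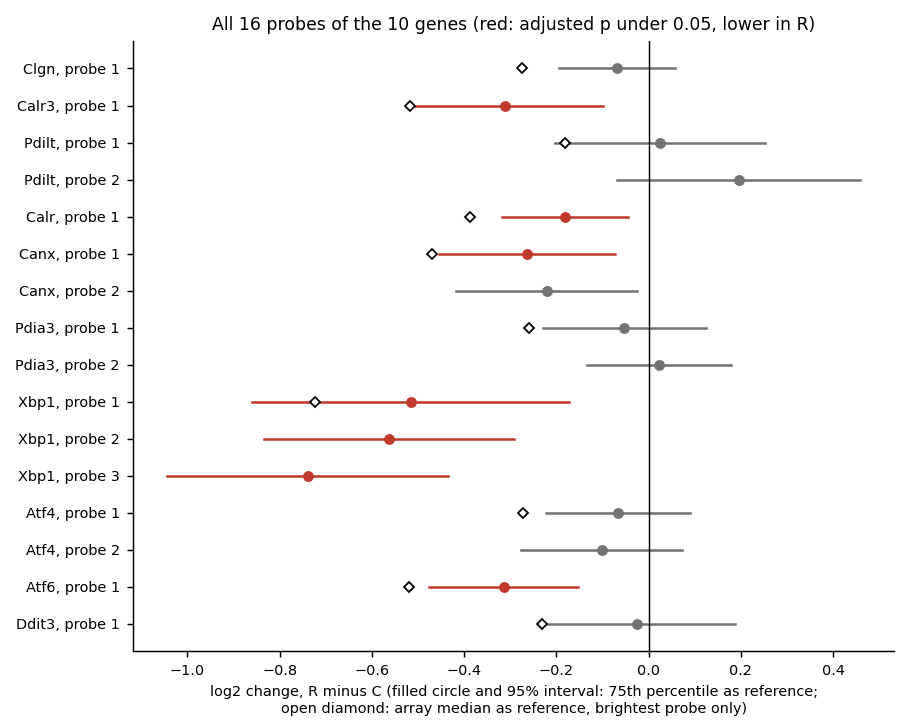
Log2 change (x axis, R minus C) of all 16 probes of the 10 genes, as a filled circle with its 95% interval, red where called lower; probe 1 is the brightest, and an open diamond gives its change with the array median as the scale. All 3 Xbp1 probes lie at or below -0.52, and the diamonds lie to the left of the circles for all 10 genes.

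Genes of the same pathways were counted from 10 lists, chosen with earlier results of these data known. Without the 10 genes the lists held 175 genes, of which 171 were tested, 15 higher (8.77%) and 66 lower (38.6%) in R, with a median log2 change of -0.18. Over all tested genes 14.9% were higher and 20.6% lower. With the array median as the scale 4 were higher and 106 lower, where 5.43% of all tested genes were higher and 37.3% lower. In the lists, 27 genes appear more than once, so the counts below overlap. The counts for single lists, below and in the figure, also include those of the 10 genes that belong to a list. Calr, Canx and Calr3 thus count among the lower lectin chaperone genes. Calr also counts among the lower XBP1 and ATF6 targets, and Atf6 among the lower sensors. When the arrays were grouped as in the authors' table, no list had a called gene in either direction (0 higher and 0 lower). That grouping gave 0 calls over all tested probes (2567 at p under 0.05 before adjustment), so it says nothing about these lists in particular. Counts without R replicate 1 and C replicate 5 are given below for each list. In that setting the calls over all tested probes went from 13059 to 6116.

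**Figure D4:**
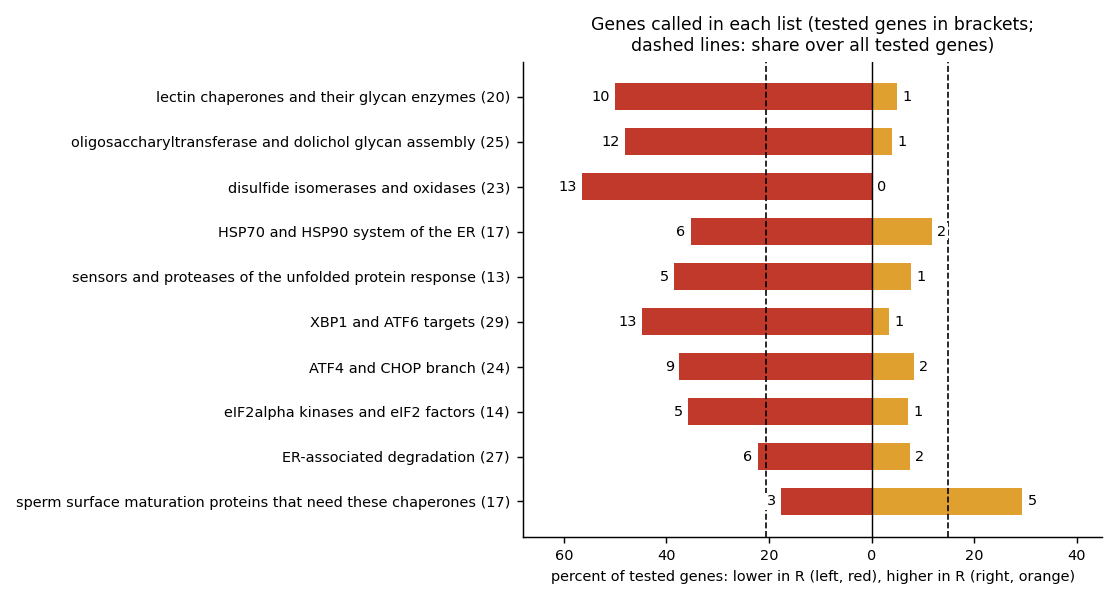
Percent of the tested genes of each list (x axis) called lower in R (red, to the left) and higher in R (orange, to the right), with the number of genes at each bar, the number tested in brackets and dashed lines at the shares over all tested genes (20.6% and 14.9%). The list of disulfide isomerases has 13 genes lower and 0 higher, and that of sperm surface proteins has 3 lower and 5 higher. The lists include those of the 10 genes that belong to them.

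Of the 13 sensors and proteases of the unfolded protein response, 5 were lower and 1 was higher, with a median of -0.27. Eif2ak3, which encodes PERK, was 1.72-fold lower in R (95% interval 1.27 to 2.34, adjusted p = 0.0139), at -3.82 to -3.24 in R and -3.14 to -2.13 in C. Ern1, which encodes IRE1-alpha, was the gene that rose, 1.24-fold (adjusted p = 0.0123), at -2.50 to -2.19 in R and -2.76 to -2.57 in C, although its change was 0.11 and not called with the array median as the scale. Ern2, the IRE1 form of epithelia, changed by 0.03 and the ATF6 relative Atf6b by 0.09, and neither was called (adjusted p = 0.842 and 0.681). Creb3, an ER-bound transcription factor, and Rtcb, the ligase that rejoins Xbp1 mRNA after IRE1 has cut it, fell by 0.64 and 0.30 on the log2 scale, and the other Creb3 probe changed by -0.43 without a call (adjusted p = 0.0679). Creb3l4 changed by 0.02 (adjusted p = 0.807). Without R replicate 1 and C replicate 5, 1 gene of this list was lower and 0 were higher.

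Of 29 genes activated by XBP1 or ATF6, 13 were lower and 1 was higher, with a median of -0.22 (6 lower without R replicate 1 and C replicate 5). Dnajb9, a co-chaperone of BiP and a target of XBP1, was 1.46-fold lower in R (95% interval 1.27 to 1.68, adjusted p = 0.00281), at 0.79 to 1.02 in R and 1.25 to 1.68 in C, while its second probe changed by -0.16 and was not called (adjusted p = 0.123). Pdia6, a disulfide isomerase, was 1.53-fold lower (adjusted p = 0.00319), at 4.30 to 4.45 in R and 4.77 to 5.34 in C. Ssr3, a subunit of the translocon-associated complex, and Sec24d, a coat protein of ER export vesicles, fell by 0.92 and 1.22 on the log2 scale, with Sec24d above background on 2 R arrays, and the other Ssr3 probe changed by -0.18 and was not called (adjusted p = 0.259). Hyou1, an ER chaperone of the HSP70 family, rose 1.46-fold (adjusted p = 0.00171), at -0.77 to -0.50 in R and -1.37 to -1.14 in C, and its other probes changed by 0.43, called higher, and 0.13, not called. Creld2 changed by -0.22 and was not called (adjusted p = 0.0610).

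Hspa5, which encodes BiP, the main HSP70 of the ER, gave opposite answers by probe. Its brightest probe was at 4.59 to 4.69 in R and 4.87 to 5.34 in C and was called 1.32-fold lower (adjusted p = 0.00984). The other 2 probes changed by 0.23, called higher (adjusted p = 0.0430), and by 0.14, not called, and over the mean of all probes the change was -0.01 (0.942). Hsp90b1, the HSP90 of the ER, changed by -0.17 and was not called (adjusted p = 0.140). In the list of the HSP70 and HSP90 system, 6 of 17 genes were lower and 2 higher, with a median of -0.17 (3 lower and 1 higher without R replicate 1 and C replicate 5). Manf, a stress-induced secreted cofactor of BiP, fell by 0.39, and Dnajc1, an ER membrane co-chaperone, rose by 0.28 on the log2 scale, or by 0.07 and not called with the array median as the scale. Fkbp2, a prolyl isomerase, fell by 0.40, and removal of any of 5 arrays ended its call (adjusted p at most 0.0592).

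**Figure D5:**
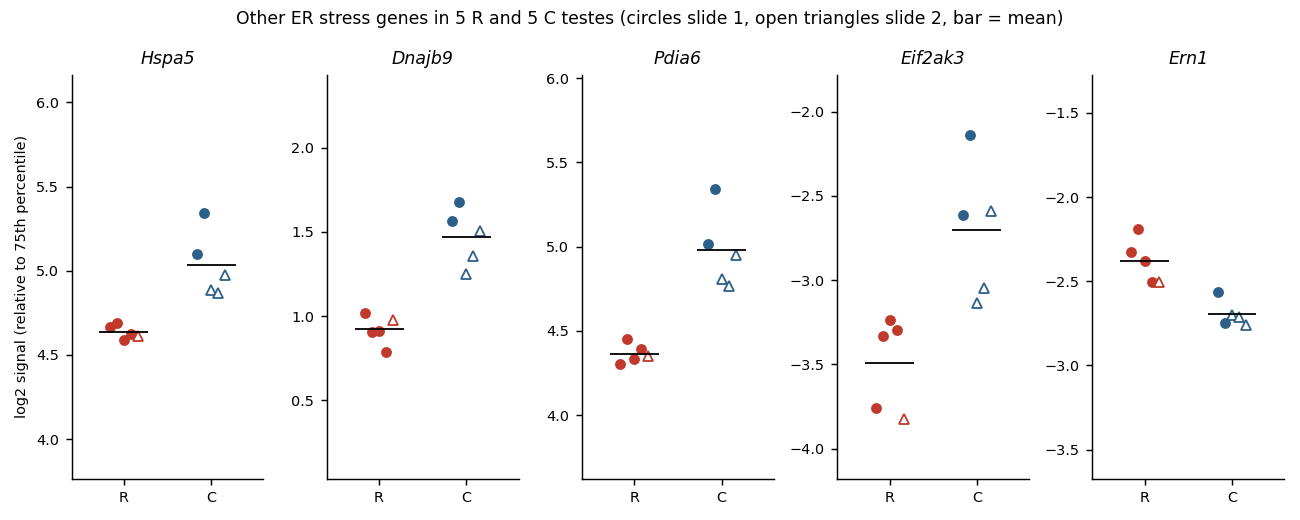
Log2 signal (y axis, relative to each array's 75th percentile) of the brightest probe of Hspa5, Dnajb9, Pdia6, Eif2ak3 and Ern1 in the 5 R and 5 C testes, with filled circles for slide 1, open triangles for slide 2 and a bar at the group mean. The 5 genes were picked from those named in the text, where Hsp90b1, Ern2, Atf6b and Trib3 were not called. The groups do not overlap in any panel: Hspa5, Dnajb9, Pdia6 and Eif2ak3 are lower in R and Ern1 is higher. Every R value lay below every C value for 16.5% of all tested genes. The other Hspa5 probes, not shown, changed by 0.23, called higher, and by 0.14, not called.

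Genes whose RefSeq window holds the same element as Calr and Canx numbered 37, of which 23 were tested. Of these, 7 were lower (Calr, Canx, Hspa5, Pdia6, Derl3, Spats2l and Xlr3b) and 2 were higher (Alg12 and Zfp57), with a median of -0.17, where 20.6% of all tested genes were lower and 14.9% higher. Hspa5 is counted by its brightest probe, and its other probes went the other way. Derl3, Spats2l, Xlr3b and Zfp57 are named after their values were seen. Hsp90b1 and Creld2 also hold it and were not called. Genes with ERSE-II in the window had 4 of 9 tested lower and 1 higher (median -0.30), those with the XBP1 element 32 of 127 lower and 23 higher (median -0.12), and those with the amino acid response element 19 of 109 lower and 13 higher (median 0.02).

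Of 24 tested genes of the ATF4 and CHOP branch, 9 were lower and 2 were higher, with a median of -0.12 (2 lower and 1 higher without R replicate 1 and C replicate 5). Asns, the asparagine synthetase and a standard target of ATF4, changed by -0.01 (adjusted p = 0.882). Trib3, a target of CHOP, changed by -0.49 and narrowly missed the threshold (adjusted p = 0.0503), and Atf3 was not tested because it was well above background on 0 arrays. Ppp1r15b, which brings back translation by helping to dephosphorylate eIF2-alpha, was 1.41-fold lower (adjusted p = 0.00170), and Slc3a2, an amino acid transporter subunit, was 1.38-fold lower (0.0190), with its other probe at -0.27 and not called (adjusted p = 0.195). Ero1a, the oxidase that recharges disulfide isomerases, fell by 0.41 on the log2 scale. Cth, the enzyme that makes cysteine from cystathionine, was well above background on 0 R arrays, which puts it at least 1.45-fold lower in R (group means -6.12 in R and -4.42 in C). It passed the filter on dim probes through the C arrays alone, so its place among the 9 lower genes is a description and supports nothing. The genes that rose were Atf5, a factor related to ATF4, at 1.24-fold (0.00741), and Phgdh, an enzyme of serine synthesis, at 1.12-fold (0.0479). Removal of any of 9 arrays ended the call of Phgdh (at most 0.107), and neither was called with the array median as the scale (0.434 and 0.711).

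Of 14 kinases and factors of eIF2, 5 were lower and 1 was higher, with a median of -0.16 (3 lower without R replicate 1 and C replicate 5). Eif2ak4, the amino acid sensor GCN2, and Impact, a protein that inhibits GCN2, fell by 0.59 and 0.58 on the log2 scale (adjusted p = 0.00267 and 0.00223). Eif2ak2, the kinase activated by double-stranded RNA, rose 1.53-fold (0.00286), at 0.10 to 0.61 in R and -0.50 to -0.27 in C. Eif2b3, a subunit of the exchange factor of eIF2, fell by 0.47, and its other 2 probes were called lower too (-0.67 and -0.60). Eif2b4 changed by 0.19 and was not called (adjusted p = 0.0548).

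In the list of the lectin chaperones and the enzymes around them, 10 of 20 genes were lower and 1 was higher, with a median of -0.23 (5 lower without R replicate 1 and C replicate 5). Mcfd2 and Lman1, which form the cargo receptor for glycoproteins leaving the ER, were 1.52-fold and 1.53-fold lower (adjusted p = 0.00107 and 0.00424), and the second probe of each was called lower too. Uggt1, which puts glucose back on unfolded glycoproteins, was 1.32-fold lower (0.00480), while its other probe changed by 0.01. Its relative Uggt2 was the gene that rose, 1.58-fold (0.00142), at -0.77 to -0.53 in R and -1.50 to -1.13 in C. Of the other probes of Uggt2, the changes were 0.43, called higher, and -0.12, not called. Edem3, which trims mannose from misfolded proteins, fell by 0.49 on its brightest probe and rose by 0.38 on the other (adjusted p = 0.0384), with -0.05 over their mean.

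The enzymes that build and attach the sugar tree were also lower in part. Of 25 tested genes, 12 were lower and 1 was higher, with a median of -0.29 (20 lower and 0 higher with the array median as the scale, 6 and 0 without R replicate 1 and C replicate 5). On the array-median scale 37.3% of all tested genes were lower and 5.43% higher. Tusc3, an oxidoreductase subunit of the oligosaccharyltransferase, was 1.57-fold lower (adjusted p = 0.00248), at 1.78 to 2.24 in R and 2.49 to 2.84 in C. Alg11, Alg5 and Alg14, enzymes that build the dolichol-linked sugar, fell by 0.58, 0.53 and 0.51 on the log2 scale. Alg12, a mannosyltransferase of the same route, rose by 0.41 (adjusted p = 0.0137), and by 0.20 without a call (0.127) with the array median as the scale. Rpn2, a structural subunit of the transferase, changed by -0.03 (adjusted p = 0.704).

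Disulfide isomerases and oxidases had 13 of 23 tested genes lower and 0 higher, with a median of -0.31 (7 lower without R replicate 1 and C replicate 5). P4hb, the classical protein disulfide isomerase, was 1.53-fold lower (95% interval 1.33 to 1.76, adjusted p = 0.00192), at 0.08 to 0.39 in R and 0.72 to 1.06 in C. Pdia5 was 1.85-fold lower (0.00158), at -0.67 to -0.39 in R and 0.02 to 0.66 in C. Qsox2, a sulfhydryl oxidase, and Tmx1, a membrane-bound isomerase, were 1.76-fold and 1.70-fold lower, and the other probe of Tmx1 changed by 0.04. Erp29 changed by -0.14 and was not called on its brightest probe (adjusted p = 0.0912), while its other probe was called lower at -0.45.

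Among 27 genes of ER-associated degradation, which removes misfolded proteins, 6 were lower and 2 were higher, with a median of -0.10 (2 lower and 0 higher without R replicate 1 and C replicate 5). The share lower was 22.2%, beside 20.6% of all genes, but with the array median as the scale 17 were lower and 0 higher, beside 37.3% of all genes lower. Nploc4, a cofactor of the ATPase that pulls proteins out of the ER, rose by 0.36 on the log2 scale (adjusted p = 0.0110; 0.15 and not called with the array median as the scale). Erlec1, a lectin of this route, and Aup1 fell by 0.30 and 0.18, and for each of them removal of any of 6 arrays ended the call (adjusted p at most 0.0677 and 0.0775). The other Erlec1 probe was called lower at -0.36 (adjusted p = 0.0042). Rnf139, a ubiquitin ligase, rose by 0.21, a call that ended on removal of any of 9 arrays (at most 0.0926). Ube2j1, a conjugating enzyme that mice need for spermatid development, changed by -0.08 (adjusted p = 0.326).

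The sperm surface proteins that are made or matured with the germ cell chaperones had 3 of 17 genes lower and 5 higher, with a median of -0.03. The balance turned to 6 lower and 1 higher (median -0.24) on the scale set by each array's median. On that scale 37.3% of all tested genes were lower and 5.43% higher, with a median of -0.23. Adam3, whose protein is lost in mice without Clgn, Calr3 or Pdilt, had log2 signals of 6.23, 6.13, 6.35, 6.26 and 6.27 in the R testes, against 6.07, 5.66, 6.21, 6.18 and 6.05 in the C testes. In R, 4 testes lay above every C testis and R replicate 2 lay within the C range, and C replicate 2 was the lowest of all. Its change of 0.21 was not called (adjusted p = 0.124), and of its other probes 1 was called higher (0.58, 0.0287) and 1 was not (0.16). Adam2, Adam1a and Adam1b, which encode partners in the fertilin complexes, changed by -0.06, -0.03 and -0.12 and were not called (adjusted p = 0.586, 0.824 and 0.259).

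Other genes of this list were called in both directions. Adam4 rose 1.93-fold (adjusted p = 0.00447), at -0.52 to 0.12 in R and -1.78 to -0.90 in C. Ace, whose testis form is needed for sperm to enter the oviduct, rose 1.17-fold (0.0234), Adam5 1.18-fold (0.0254) and Cmtm2b 1.15-fold (0.0181). The other probe of Adam5 changed by 0.21 and that of Cmtm2b by -0.10, and neither was called (adjusted p = 0.223 and 0.381). With the array median as the scale the changes of Ace, Adam5 and Cmtm2b on their brightest probes were 0.02, 0.03 and -0.01 and none of these 3 was called. The call of Ace ended on removal of either of 2 arrays and that of Adam5 on removal of any of 4 (at most 0.0533 and 0.0559). Tex101 and Ly6k, surface proteins that work together in ADAM3 maturation, were 1.30-fold and 1.29-fold lower (0.0403 and 0.0141), and the call of Tex101 ended on removal of any of 6 arrays (at most 0.0887), though its other probe was called lower at -0.81. Tpst2, a tyrosine sulfotransferase that mice need for male fertility, was 1.39-fold lower (0.0125). Without R replicate 1 and C replicate 5, 0 of these genes were lower and 1 was higher.

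Markers of several cell types were also called, and over all tested genes 20.6% were lower and 14.9% higher. Of 13 tested Sertoli cell markers 10 were lower and 1 higher, with mean log2 signals of 1.85 to 2.05 in R and 2.07 to 2.73 in C. Of 10 Leydig cell markers 5 were lower and 0 higher (0.40 to 0.87 in R, 0.65 to 1.52 in C), and of 9 macrophage markers 6 were lower and 0 higher (-2.89 to -2.07 in R, -2.09 to -1.41 in C). Germ cell markers gave 5 lower and 1 higher of 10 for spermatogonia (-0.53 to -0.40 in R, -0.32 to 0.13 in C). Spermatocytes had 4 and 0 of 10 (3.54 to 3.62 in R, 3.74 to 3.93 in C). Round spermatids had 0 and 0 of 10 (3.31 to 3.50 in R, 3.22 to 3.58 in C). Elongating spermatids had 3 and 0 of 10 (6.63 to 6.81 in R, 6.76 to 6.99 in C). Endothelial and myoid markers had 3 of 10 higher and 0 lower. Plasma and B cells, which are rich in XBP1, had 5 of 10 markers tested and 1 lower, with Ighm, Igkc, Cd79a, Cd79b and Prdm1 not tested. The epididymal markers Adam7, Crisp1, Lcn5, Lcn8 and Rnase9 were not tested. The fat markers of the same list had means of -1.50 to 0.49 in R and -3.86 to 0.08 in C. Their median log2 change was 2.11, with 0 called. The part of these cell types in the changes of Calr, Canx, Calr3, Xbp1, Atf6 and the listed genes was not tested.

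The genes whose pattern over the 10 arrays lay nearest to each germ cell chaperone were found by the root-mean-square difference of log2 signals after centring. For Clgn they were Atp5j, Btbd10 and Glmn (0.026 to 0.027). For Calr3 they were Lrrc57, 4931403M11Rik and Gm4984 (0.064 to 0.073), with changes of -0.30, -0.31 and -0.32 beside -0.31 for Calr3 itself. For Pdilt they were Tubb6, Fsip2l and Tmem225 (0.049 to 0.058). These genes were chosen for a like pattern over the same arrays, so the closeness of their changes follows from the choice and supports nothing. None of the other members was among these 9 genes, which were drawn from 16738 tested genes.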

How the data were processed

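Per the labels' protocols, total RNA of single testes was taken with either of 2 column kits and labelled with Cy3, and which kit served which testis is not given in the sources used here. The submitters' processing notes name Agilent Feature Extraction 12.0.3.1 as the source of the spot intensity values that the authors deposited. The processed intensity had its background subtracted within each array, per the file headers. A deposited table of the authors' own comparison covers 2266 probes with a log2 ratio, a p-value and a q-value each, and its 10 scaled-intensity columns served to find which arrays formed its control mean; a further 10 columns with per-sample values were not used.

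Control and outlier spots were left out, log2 processed intensity was set relative to each array's 75th percentile, and spots of a probe were averaged. Of 56605 probes, those with the well-above-background flag on 5 or more of the 10 arrays (33851) were tested with limma 3.58.1 in R 4.3.3 (lmFit, eBayes, 2-sided, Benjamini-Hochberg). Of the probes, 33767 took 1 symbol through their accession in a GRCm38 gene table. Precision is limited by the number of arrays. The fit was first tested on simulated data.

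The 10 genes, the lists and the pairs of genes were chosen with earlier results of these data known. Named were the 10 genes with every probe, up to 4 called genes of smallest p in each direction and the brightest gene of each list, the sensors, Hspa5, Hsp90b1, Dnajb9, Trib3, Atf3, 7 sperm surface genes and the 3 genes nearest to Clgn, Calr3 and Pdilt; 1 gene that this rule names is not reported here.

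Alternatives were normexp correction (offset 50, on the median spot signal), quantile and array-median scaling, 2 filters, the slide as a block or alone, each array left out, array weights, a trended variance, the mean of probes and, added after seeing the data, the grouping of the authors' table.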

Additional observations from a re-analysis of the deposited data

Results flagged for a closer look

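In the C group, Pdia3 had 1 sample far from the others. C replicate 2 had a log2 signal of 3.22, against 2.89 to 2.95 in the other C testes, a gap of 0.825 of the group's range, above Dixon's 95% limit for 5 samples. Over the 20 groups examined (10 genes in R and in C) this was the 1 found, and chance alone gives about 1 in 20. The same array stands apart on principal component 1, and without it the log2 change of Pdia3 is 0.01 in place of -0.05.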

How the results depend on the processing

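Of the 10 genes, 5 were called lower under the reported settings, and 0 genes were called higher under any setting run. The count lower was 1 with no filter on dim probes, 3 within slide 1, 0 within slide 2 (1 R and 3 C), 1 to 5 as each array was left out, 0 without R replicate 1 and C replicate 5 and 0 with the grouping of the authors' table. Over all probes, limma's calls within slide 2 numbered 0 with 8750 below 0.05 before adjustment, and with the table's grouping 0 with 2567. Without R replicate 1 and C replicate 5, 6116 probes were called, against 13059 with all 10 arrays.

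Over all settings of the 10 log2 changes, 166 kept their direction and side of the threshold, 46 kept the direction and lost the call, 2 gained a call and 16 changed sign. All sign changes were in genes that were not called. Pdilt turned to -0.18 with the array median as the scale, -0.10 within slide 2, and went between -0.0411 and 0.0755 in the leave-one-out fits, below 0 in the absence of C1, R3 or R4. Pdia3 went between -0.0837 and 0.0091 in those fits, above 0 in the absence of C2. Ddit3 turned to 0.0749 with the slide as a block and to 0.0859 and 0.0554 within slides 1 and 2, and went between -0.0858 and 0.0167 in the leave-one-out fits, above 0 in the absence of C3, C4, R2 or R4. With the table's grouping Clgn was at 0.0037, Atf4 at 0.0144 and Ddit3 at 0.0008.

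In the lists, the table's grouping gave 0 higher and 0 lower in each of the 10, where it called 0 of all tested probes. Without R replicate 1 and C replicate 5 the counts lower were 5 (lectin chaperones), 6 (sugar tree assembly), 7 (disulfide isomerases), 3 (HSP70 and HSP90 system), 1 (sensors), 6 (XBP1 and ATF6 targets), 2 (ATF4 branch), 3 (eIF2), 2 (degradation) and 0 (sperm surface). The counts higher were then 0 (sugar tree assembly, disulfide isomerases, sensors, degradation) or 1 (lectin chaperones, HSP70 and HSP90 system, XBP1 and ATF6 targets, ATF4 branch, eIF2, sperm surface). With the array median as the scale the counts lower were 13 (lectin chaperones), 20 (sugar tree assembly), 16 (disulfide isomerases), 12 (HSP70 and HSP90 system) and 7 (sensors). The other counts lower were 22 (XBP1 and ATF6 targets), 12 (ATF4 branch), 7 (eIF2), 17 (degradation) and 6 (sperm surface). The counts higher were 0 (sugar tree assembly, disulfide isomerases, sensors, ATF4 branch, degradation) or 1 (lectin chaperones, HSP70 and HSP90 system, XBP1 and ATF6 targets, eIF2, sperm surface). On the array-median scale 37.3% of all tested genes were lower and 5.43% higher. For the slide as a block and without C replicate 2, only the counts that moved most in proportion are given. With the slide as a block 2 were higher in the lists of lectin chaperones and of sugar tree assembly and 1 in the ATF4 branch. Without C replicate 2, 2 were higher among XBP1 and ATF6 targets and 1 in the ATF4 branch. The cause of these moves was not tested, and the fits that left some arrays out had fewer of them. Among all called genes 42.0% were higher, and 12.7% with the array median as the scale. The settings with the table's grouping and, for the lists, without 1 or 2 arrays were chosen after seeing the data.

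No paired analysis was possible because the labels give no replicate numbers that tie R animals to C animals. All 16 probes of the 10 genes were well above background on all 10 arrays. Whether the level of signal affected the calls was not tested, and each group had only 5 animals.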
